A study of Oryza sativa Indica Group with 6 samples.

Results

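The ethylene response factors (ERF) and dehydration-responsive element binding factors (DREB) of rice were examined in seedlings of the semi-dwarf mutant *sd37* and of its wild type, the indica cultivar 3037. A gene was taken as a member when its symbol or a synonym in the RefSeq gene table was ERF or DREB followed by a number and an optional letter, and 14 genes met this rule. A probe set assigned to that gene alone was found on the array for 9 of them, *DREB1A*, *DREB1B*, *DREB1C*, *DREB1E*, *DREB1G*, *DREB2A*, *DREB2B*, *DREB2D* and *FZP*. *DREB1F*, *DREB1H*, *DREB1I*, *DREB1J* and *DREB2C* had none and were not analysed here. The probe set that the study described as ethylene-responsive transcription factor 4 was added and is called *ERF4* here. That name comes from the study and not from the platform annotation, so which gene or genes the probe set measures was not checked. This gave 10 members of 17906, counted as the genes with a probe set of their own together with *ERF4*. The list is mostly a DREB list, since each of the ERF-numbered genes measured other than *FZP* (ERF78) also carried a DREB symbol.

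The wild type was represented by 3 arrays and *sd37* by 3, numbered 1 to 3 within each genotype, and each array, an Affymetrix Rice Genome Array with 57258 probe sets beside its controls, was hybridised with RNA from seedlings of 2 weeks. The mutant arose spontaneously in 3037 and carries a single base substitution that changes a residue of the cytochrome P450 *CYP96B4*, so the comparison rests on 1 mutant allele in 1 background. No stress treatment was stated, and both genotypes were grown under 16 h of light at 26 °C and 8 h of dark at 18 °C. The hour of harvest and the number of seedlings per sample were not stated in the sources used here. The replicates are labelled biological, but what a shared number stood for was not stated either.

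ERF and DREB proteins belong to the AP2/ERF superfamily, plant transcription factors that bind DNA through an AP2 domain. DREB proteins bind the dehydration-responsive element in promoters of genes for protection against cold, drought and salt. The DREB1 clade, also called CBF, is known chiefly for rapid induction by cold, and the DREB2 clade for responses to dehydration and heat. Other ERF proteins bind the GCC box of defence and ethylene-responsive genes. *FZP*, or FRIZZY PANICLE, represses axillary meristems in the spikelet, and its known site of action is the young panicle.

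The arrays of replicate 1 stood apart from the others in both genotypes. Their median probe set signals were 51 in the wild type and 56.2 in *sd37*, against 32.3 to 34.3 on the other arrays. Hybridization control probe sets averaged 4520 and 4990 there against 2460 to 2660, although 35.3% to 38.8% of probe sets reached a signal of 100 on every array. The actin 3′ to 5′ ratio was 10.1 and 9.86 on the replicate 1 arrays and 11.3 to 13.9 on the others. For GAPDH it was 4.74 and 4.8 against 4.98 to 6.7. On every array the 3′ signal of both controls was thus several times the 5′ signal, and its effect on the results was not tested. Results are therefore given by genotype and by replicate number. Signals are in the linear units of the deposited values, and levels of different probe sets cannot be set against each other.

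*ERF4* gave a lower signal in the mutant. The wild-type signals were 9315.9, 8692.4 and 9509.8 in replicates 1, 2 and 3, and the *sd37* signals were 4241.4, 3860.5 and 5377.6. Every mutant array lay below every wild-type array. The mean on the log2 scale corresponded to signals of 9170 and 4450, a 2.06-fold lower value in *sd37*. Within replicate numbers the log2 differences were -1.14, -1.17 and -0.82. These values are a description and not a test, because the probe set entered the list through the genotype result reported for these same arrays. Of all probe sets, 2.87% had every *sd37* array below every wild-type array, and *ERF4* was the only one of the 10 members among them. A lower signal in seedling RNA cannot tell fewer cells of an expressing type from less RNA per cell. In Arabidopsis the protein named ERF4 is a repressor of transcription, and the sources used here give no role for what this rice probe set measures. Between replicate 1 and replicates 2 and 3 the log2 difference of *ERF4* was -0.03 (SE 0.14; limma adjusted p = 0.889).

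**Figure D1:**
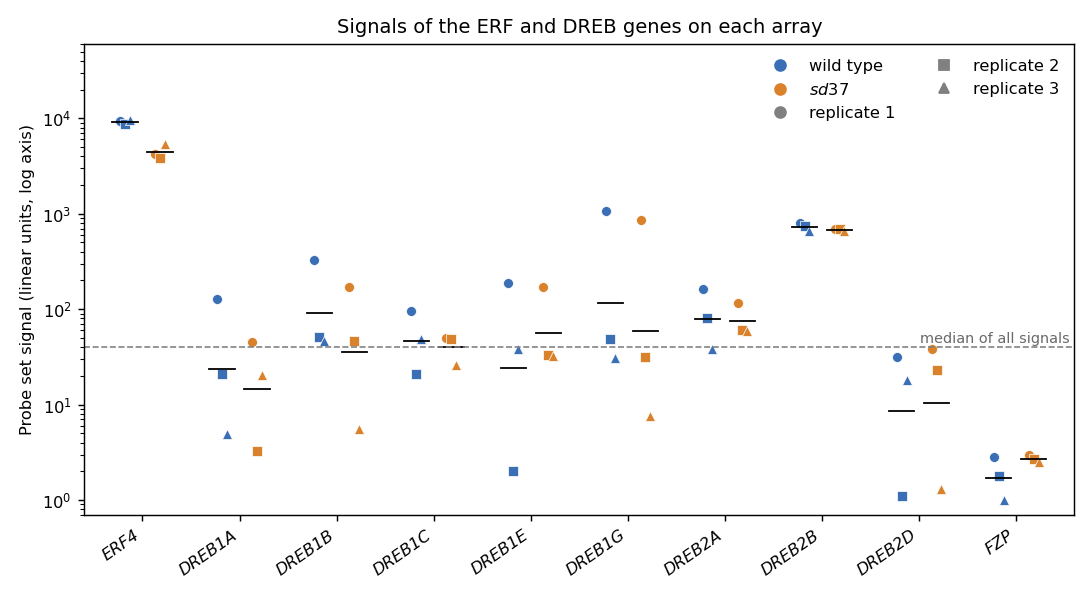
Signals of the 10 ERF and DREB genes on the 6 arrays (vertical log axis, linear signal units; values under 1 drawn at 1). Blue marks wild type and orange *sd37*, the marker shape gives the replicate number, black bars are means of log2 signals over 3 arrays, and the dashed line is the median of all signals, 40.1. *ERF4*, listed because of the genotype result of these same arrays, separates by genotype. *DREB1G* separates replicate 1 (851.8 and 1056.3) from the other arrays (7.6 to 48.4).

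None of the 9 other genes differed between the genotypes by the test across all probe sets (limma, adjusted p = 1 for each). A probe set was called when its adjusted p was below 0.05 and its 2 means were at least 1.5-fold apart, and the share called was 0%. By the same rule with the unadjusted p, 0 of the 9 passed, against 2.18% of all probe sets. With the replicate number as a block the count was again 0 of 9, against 4.27%. With 3 arrays against 3 an exact permutation test cannot give a two-sided p below 0.1. The median genotype difference was -0.10 over the 9 genes and 0.02 over all probe sets, on the log2 scale.

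*DREB2B*, whose transcript in rice is spliced into a short functional and a longer form, gave the narrowest limits of these 9 genes. Its signals were 806.8, 741.8 and 653.2 in the wild type and 695.4, 685.7 and 666 in *sd37*. The genotypes overlapped, and the log2 difference of -0.10 had a 95% interval from -0.61 to 0.41. *DREB2A*, of the same clade, gave 163.4, 81.2 and 38.4 in the wild type and 116.5, 60.7 and 58.4 in *sd37*. Here too the genotypes overlapped, and replicate 1 was the highest array of each genotype. The difference between genotypes was -0.10 (SE 0.64) on the log2 scale.

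The DREB1 genes had wide limits in the genotype comparison without the replicate number. For *DREB1A* the log2 difference was -0.69 with a 95% interval from -4.03 to 2.64, and for *DREB1B*, which RefSeq places near *DREB1A* with *DREB1H* between them, it was -1.38 (SE 1.31). *DREB1G* differed by -0.98 (SE 1.87) and *DREB1C* by -0.22 (SE 0.74). The genotypes overlapped for each of these genes. The interval of *DREB1A* covered a change of several fold in either direction, also with the replicate number as a block (-3.17 to 1.79). *DREB1E* had a higher mean in *sd37* by 1.21 (SE 1.58), which rested on a single wild-type array at a signal of 2. Within replicate numbers its differences were -0.15, 4.04 and -0.26.

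Of the 9 genes, 2 were lower in *sd37* in all 3 replicate numbers, against 12.2% of all probe sets, and 1, *FZP*, was higher in all 3, against 14.1%. The lower ones were *DREB1B* and *DREB1G*, with differences of -0.92, -0.14 and -3.07 for *DREB1B* and -0.31, -0.62 and -2 for *DREB1G*. With the replicate number as a block, the 95% interval narrowed to -2.82 to 0.07 for *DREB1B* and -2.01 to 0.05 for *DREB1G*, and the limma adjusted p was 0.832 for both. Without *sd37* replicate 3, in the fit without the block, the difference was -0.03 for *DREB1B* and 0.5 for *DREB1G*. *DREB1A*, *DREB1C* and *DREB1E* did not keep 1 sign over the replicate numbers, and for *DREB1A* the differences ran from -2.67 in replicate 2 to 2.07 in replicate 3. *DREB2D* gave signals of 31.9, 1.1 and 18 in the wild type and 38.4, 22.9 and 1.3 in *sd37*. One array of each genotype was near the lowest values of the array, and the log2 difference was 0.29 (SE 1.71). Another probe set of *DREB2D*, with a lower mean, gave 28.9, 0.9 and 0.8 in the wild type and 2.9, 0.6 and 9.6 in *sd37*. It did not have replicate 1 as the highest *sd37* array, so the values used are those of 1 probe set. *FZP* gave 2.8, 1.8 and 0.8 in the wild type and 3, 2.7 and 2.5 in *sd37*, which are among the lowest values of the array in both genotypes, with differences of 0.1, 0.58 and 1.32 within replicate numbers.

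**Figure D2:**
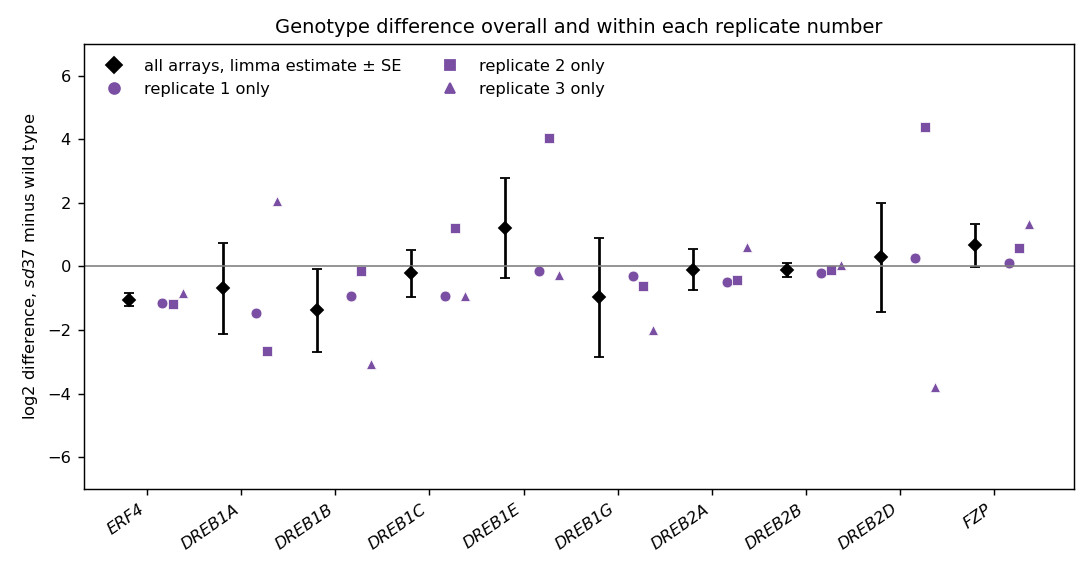
Differences in log2 signal between *sd37* and wild type for the 10 genes (vertical axis, values below 0 being lower in *sd37*), with black diamonds and bars for the limma estimate and its standard error over 6 arrays and purple markers for the difference within each replicate number. The 3 markers of *ERF4* lie close together below 0 (-1.17 to -0.82), while those of *DREB1A*, *DREB1E* and *DREB2D* spread over both signs. *ERF4* entered the list through the genotype result of these same arrays, so its values here are a description and not a test.

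Most of the DREB genes were highest in replicate 1. Both replicate 1 arrays lay above the 4 others for 8 of the 10 members, all but *ERF4* and *DREB2B*, and the same order was found for 27.4% of all probe sets. The order was a near tie for *DREB1C*, at 49.9 in *sd37* replicate 1 and 49.2 in *sd37* replicate 2. For *FZP* it was 2.8 in wild-type replicate 1 against 2.7 in *sd37* replicate 2. Another probe set of *DREB1C* and another of *DREB2D* did not have this order. The share of 27.4% covers all signal levels, while probe sets near the dim *FZP* in mean signal had a median replicate difference of 0.87. In the fit of replicate 1 against replicates 2 and 3 with genotype as a term, 2 of 10 members, *DREB1G* and *DREB1B*, were called higher in replicate 1, against 9.38% of all probe sets. None of the 10 was called lower, against 9.85%. The median difference was 2.04 over the members and 0.39 over all probe sets, on the log2 scale.

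*DREB1G* showed the largest replicate difference of the members. In replicate 1 its signals were 1056.3 for the wild type and 851.8 for *sd37*. On the other arrays they were 48.4 and 30.5 in the wild type and 31.6 and 7.6 in *sd37*. The 2 groups of arrays did not overlap, and replicate 1 was 38.9-fold higher (log2 difference 5.28, SE 0.59, limma adjusted p = 0.000299). The fold was 27.5 within the wild type and 55 within *sd37*. Of the variation in its log2 signal, 94.6% lay between replicate numbers. The call was kept when any single array was left out (limma adjusted p from 0.000133 to 0.0265). Without a replicate 1 array that group holds 1 array, which is then assumed to vary like the others.

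*DREB1B*, a cold-induced gene in rice, gave 327.2, 51.3 and 46.1 in the wild type and 172.6, 46.7 and 5.5 in *sd37*. Replicate 1 was again above every other array, 8.51-fold higher (log2 difference 3.09, SE 0.79, limma adjusted p = 0.0223). This call was lost when wild-type replicate 1 (adjusted p = 0.157), wild-type replicate 3 (0.0538) or *sd37* replicate 1 (0.231) was left out of the limma fit, at log2 differences of 3.43, 3.11 and 2.75. With signals under 32 set to 32, the difference was 2.45 (limma adjusted p = 0.0292).

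*DREB1E* and *DREB1A* had differences of like size and did not pass. *DREB1E* gave 188.8, 2 and 38.2 in the wild type and 170, 32.8 and 32 in *sd37*, a 10.6-fold higher value in replicate 1 (limma adjusted p = 0.0589). It passed when wild-type replicate 2 (adjusted p = 0.0139) or wild-type replicate 3 (0.0275) was left out of the limma fit. It also passed with signals under 32 set to 32, where the log2 difference was 2.41 in place of 3.41 (limma adjusted p = 0.00855). That floor and leaving out wild-type replicate 2 both remove the same signal of 2, so they are not separate support. *DREB1A*, which is induced by cold and by salt in rice, gave 127.9, 21 and 4.9 in the wild type and 45.8, 3.3 and 20.6 in *sd37*. Replicate 1 was the highest array of each genotype, and the 8.37-fold higher value had a limma adjusted p of 0.0781, or 0.0485 without *sd37* replicate 3. With signals under 32 set to 32 its log2 difference was 1.26 in place of 3.07 (limma adjusted p = 0.135).

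*DREB1C* was measured by 3 probe sets that disagreed. The probe set with the highest mean, used here by rule, gave 95.6, 21.2 and 49 in the wild type and 49.9, 49.2 and 25.8 in *sd37*, and its replicate difference was 1.03 (SE 0.64). A second gave 3.4, 0.7 and 2.2 against 39.6, 2.9 and 1.1, and the other 1.6, 1.2 and 1.6 against 4.3, 1.8 and 27. The values of *DREB1C* are thus those of 1 probe set rather than of the gene. The name of the probe set used has the letter A, which in the naming of these arrays stands for the antisense strand, and its strand was not checked because no probe sequences were used here.

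In the DREB2 clade the replicate differences were smaller for the genes with higher precision. *DREB2A* was higher in replicate 1 by 1.26 (SE 0.44, limma adjusted p = 0.0748) and *DREB2B* by 0.13, with a 95% interval from -0.19 to 0.44. The 6 signals of *DREB2B* spanned 0.31 on the log2 scale. *DREB2D* differed by 2.83 (SE 1.51), with wild-type replicate 2 at 1.1 and *sd37* replicate 3 at 1.3. With signals under 32 set to 32 its difference was 0.13. *FZP* differed by 0.63 (SE 0.66), from signals near the bottom of the range.

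**Figure D3:**
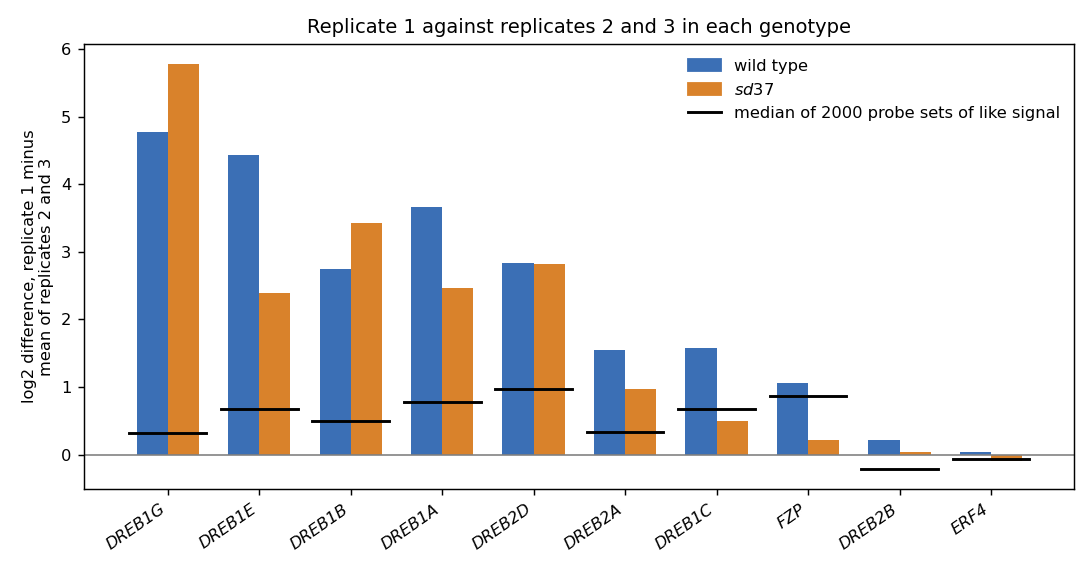
Differences in log2 signal between replicate 1 and the mean of replicates 2 and 3 for the 10 genes, as bars for wild type (blue) and *sd37* (orange), each from 3 arrays with no error of its own, and with black lines for the median difference of the 2000 probe sets nearest in mean signal (vertical axis, values above 0 being higher in replicate 1). *DREB1G* reaches 4.78 and 5.78, while *ERF4* and *DREB2B* lie near 0.

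The replicate differences of the DREB1 genes were above 0 in both genotypes. They were 2.75 in the wild type and 3.43 in *sd37* for *DREB1B*, 4.78 and 5.78 for *DREB1G*, 4.43 and 2.39 for *DREB1E*, 3.66 and 2.47 for *DREB1A*, and 1.57 and 0.49 for *DREB1C*. The test of the difference between genotypes called 0% of all probe sets, and adjusted p for the members ran from 0.84 to 0.999 (limma, with 4413 probe sets passing by the unadjusted rule). With 1 replicate 1 array in each genotype this does not show that the genotypes were alike, and for *DREB1E* the difference of -2.04 had a 95% interval from -8.01 to 3.92. Replicate 2 against replicate 3 likewise called 0% (2017 by the unadjusted rule), with an adjusted p of 1 for each member. That contrast was widest for *DREB1E* at -2.11 (SE 1.12).

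Other measures moved with replicate 1. Among the 2000 probe sets nearest in mean signal to each member, the median replicate difference was 0.32 for *DREB1G*, 0.49 for *DREB1B*, 0.68 for *DREB1E* and 0.78 for *DREB1A*. It was 0.67 for *DREB1C*, 0.33 for *DREB2A*, 0.97 for *DREB2D*, 0.87 for *FZP*, -0.07 for *ERF4* and -0.21 for *DREB2B*. The difference of *FZP* itself, 0.63, did not reach that median, and that of *DREB1C* was 1.03. The summed signal of 3 leaf marker genes was 113000 to 135000 in replicate 1 and 38100 to 56100 in the others, and 2 of the 3 were called higher (9.38% of all probe sets). The summed signal of 5 inflorescence marker genes was 1450 to 2030 in replicate 1 and 16000 to 19100 in the others, with 4 of the 5 called lower (9.85% of all probe sets). Among these *MADS14*, which marks inflorescence meristems and also rises in leaves before flowering, had signals of 74.7 and 90.9 in replicate 1 and 4019.8 to 4620.1 elsewhere. *MADS18* had the largest signals of the 5, 1899.3 and 1227.2 in replicate 1 and 10178.3 to 12102 elsewhere, and so led the sum. The gene not called, *MADS6*, had a difference of 1.72 (SE 1, limma adjusted p = 0.262) from low signals. That value rested on *sd37* replicate 1 at 36.6, while the other arrays, wild-type replicate 1 among them, lay at 2.3 to 4.9. The 2 root markers measured summed to 11.3 to 75 over all arrays. The part of the marker genes, the control signals and the RNA ratios in the DREB1 differences was not tested.

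Genes that act with these factors were read from lists. Of 4 ethylene synthesis genes 3 were measured, and none was called by genotype or by replicate. All *sd37* arrays lay below the wild type for *ACS1* and above it for *ACS2*, orders that 2.87% and 3.2% of all probe sets had. The signals of *ACS1* were 9.4, 11.1 and 10 in the wild type and 5.3, 2.2 and 8 in *sd37*, all below the median of all signals. The log2 differences were -1.16 (SE 0.88) for *ACS1* and 0.83 (SE 0.48) for *ACS2*. All 8 genes of ethylene perception and signalling were measured, and none was called by genotype, with a median difference of -0.05. In replicate 1 the receptor gene *ETR2* was higher (log2 difference 1.54, SE 0.24, limma adjusted p = 0.00175), the receptor gene *ERS1* was lower with a difference of -0.89 (adjusted p = 0.000257) and the signal transducer *EIN2* was lower with a difference of -0.89 (adjusted p = 0.00276). The other 5 did not pass, and the shares of all probe sets called higher and lower were 9.38% and 9.85%. Of 4 other AP2/ERF genes 3 were measured, and 1, *AP2-1*, was called higher in replicate 1 by 1.75 (limma adjusted p = 6.29e-05).

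Of 8 stress-induced genes listed with the DREB factors, 7 were measured, among them 4 dehydrin genes of the RAB family. None was called by genotype, 4 had lower and 3 higher means in *sd37*, and the median difference was -1.08 on the log2 scale. The late embryogenesis abundant gene *LEA19* gave 23.4, 20 and 22.1 in the wild type and 8.7, 1.5 and 2.4 in *sd37*. It was the only one of the 7 whose genotypes did not overlap, an order that 2.87% of all probe sets had, the log2 difference was -2.79 (SE 0.96, limma adjusted p = 1), and all 6 signals were below the median of all signals. The dehydration-stress gene *DIP1* gave 12422.1, 5458.6 and 5656.8 in the wild type and 9221.4, 2344.1 and 1876.6 in *sd37*. Its mutant value was lower in each replicate number, by differences of -0.43, -1.22 and -1.59, as for 12.2% of all probe sets. The genotypes overlapped, with both replicate 1 arrays high. The log2 difference was -1.08 (SE 0.61), and with the replicate number as a block the limma adjusted p was 0.285. *RAB16D* ran the other way, with 44.3, 4.9 and 3.7 in the wild type and 102.3, 45.6 and 28.1 in *sd37*. It was higher in the mutant in each replicate number, by 1.21, 3.22 and 2.92, as were 14.1% of all probe sets. The genotypes overlapped, with a log2 difference of 2.45 (SE 1.13, limma adjusted p = 1). The related *RAB16B* differed by -2.87 (SE 1.31, limma adjusted p = 1).

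By replicate, 3 of the 7 were called higher in replicate 1, 1 was called lower and 3 did not pass, against 9.38% and 9.85% of all probe sets called higher and lower. *SALT*, a lectin gene induced by salt, was higher by 4.18 (SE 0.85, limma adjusted p = 0.00745), the dehydrin gene *RAB16C* by 2.94 (adjusted p = 0.00537) and *DIP1* by 1.65 (adjusted p = 0.000489). The dehydrin gene *RAB21* ran the other way, at -2.33 (SE 0.47, limma adjusted p = 0.00736). Its signals were 208.7 and 144.8 in replicate 1 and 258.7 to 1949 on the other arrays. *RAB16C* and *RAB21* belong to 1 gene family, and signal shared between such copies cannot be told apart here.

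**Figure D4:**
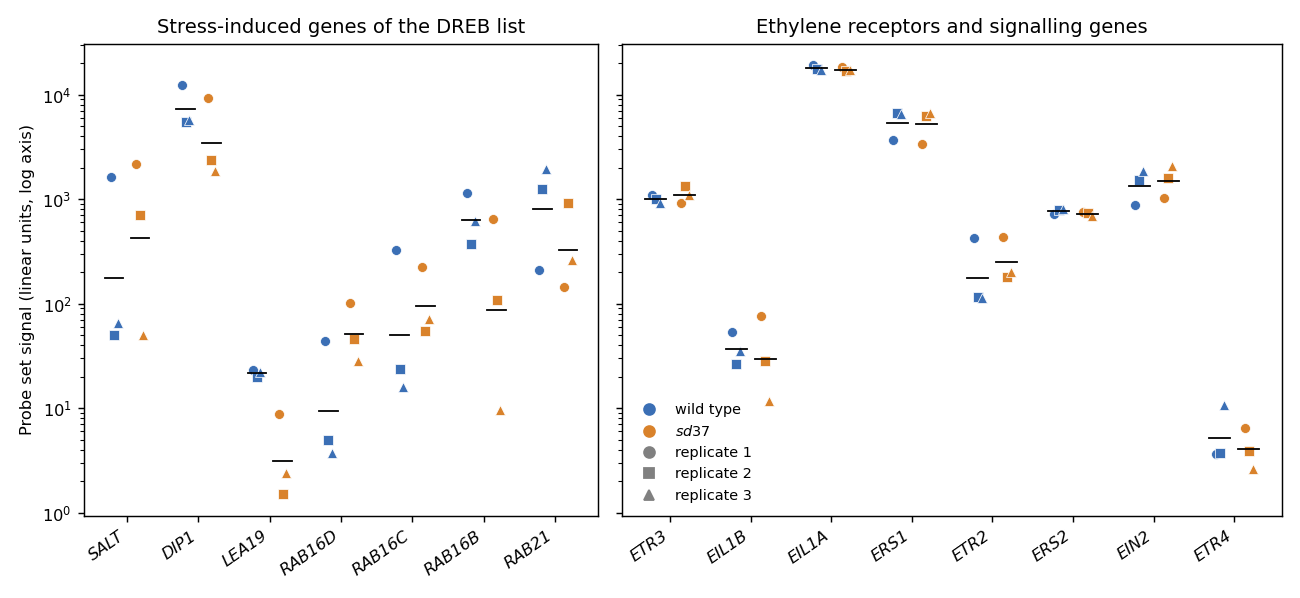
Signals of the 7 stress-induced genes of the DREB list (left) and the 8 ethylene perception and signalling genes (right) on the 6 arrays (vertical log axis, linear signal units), with blue for wild type, orange for *sd37*, marker shape for the replicate number and black bars for means of log2 signals over 3 arrays. *SALT* lies at 1619.1 and 2184 in replicate 1 and at 49.9 to 706.9 elsewhere, and *RAB21* lies lower in replicate 1.

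Jasmonate and wounding genes, whose pathway meets that of ethylene at ERF proteins, were counted in the same way. Of 29 listed genes 27 were measured, none was called by genotype, and the median difference was -0.09. In replicate 1, 3 were called higher, 3 lower and 21 did not pass, with a median of 0.43. These counts are near the shares of all probe sets, 9.38% and 9.85%. The lipoxygenase gene *LOX8* was higher by 4.38 (SE 0.52, limma adjusted p = 0.000394), with 1742.9 and 2275 in replicate 1 and 40.7 to 191.3 on the other arrays. *JAZ6* was higher by 1.43 and *JAZ12* by 0.73. The genes called lower were *JAZ11* at -1.48, *TIFY2B* at -0.79 and *JAZ7* at -0.75. *JAZ10*, one of the JAZ repressors of jasmonate signalling, gave 2021, 670.7 and 756.6 in the wild type and 450.9, 505 and 535.5 in *sd37*. The difference of -1.02 (SE 0.42) had a limma adjusted p of 1. All *sd37* arrays lay below the wild type for 2 of the 27 genes, *JAZ10* and *JAZ2*, and above it for 0, against 2.87% and 3.2% of all probe sets.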

How the data were processed

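Seedling RNA of both genotypes, 3 samples each, was hybridised to Affymetrix rice arrays. The authors deposited 1 linear intensity per probe set and array, summarised and normalised by the array service, and their algorithm was not stated in the sources used here. The array was designed mostly from japonica sequence, so mismatches in an indica cultivar may lower signals equally in both genotypes. The 123 control probe sets were left out, signals under 1 (1.77%) were set to 1, and no further normalisation was applied. Genes were named through the platform annotation and the RefSeq gene table. A gene was represented by its probe set with the highest mean.

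limma 3.58.1 (R 4.3.3) was fitted to log2 signals of all 57258 probe sets, with lmFit, eBayes with trend and Benjamini-Hochberg adjustment. A call needed an adjusted p below 0.05 with means at least 1.5-fold apart. The contrasts were *sd37* against wild type, and replicate 1 against 2 and 3 with genotype as a term. The script was tested on simulated data. Same-numbered arrays of the genotypes deviated together (correlations 0.394, 0.134 and 0.16), although the crossed pairs of replicates 2 and 3 gave 0.164 and 0.13. The number of arrays limits precision, and the median SE of the genotype difference was 0.287 in the top quartile of mean signal and 1.08 in the bottom quartile. All 10 members are named, and from the 8 lists only a part of the genes, among them not every gene called in replicate 1. Members and lists were chosen with earlier results of these data known. Alternatives were quantile normalisation, a floor of 32, a filter on dim probe sets, the mean of a gene's probe sets, a replicate block, an ordinary F test and leaving out arrays. Sequences were not used here.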

Additional observations from a re-analysis of the deposited data

How the results depend on the processing

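No genotype call was made among the 9 genes other than *ERF4* in any alternative run. The replicate block gave 0 calls and a median of -0.10, although it raised the calls over all probe sets from 0 to 6. The genotype median of the members ran from -0.78 to 0.53 when 1 array was left out and was 0.09 from replicates 2 and 3 alone, a setting chosen after seeing the data. In that setting *DREB1C* was 0.14 and *DREB2A* 0.09. *DREB1E* was -0.12 with a floor of 32, and *DREB1C* was 1.06 as the mean of its probe sets. With single arrays left out, genotype differences ran from -1.83 to 0.53 for *DREB1A*, -2.52 to -0.03 for *DREB1B*, -0.78 to 0.31 for *DREB1C*, -2.9 to 0.62 for *DREB1G*, -0.63 to 0.42 for *DREB2A*, -0.59 to 2.69 for *DREB1E* and -1.2 to 1.79 for *DREB2D*.

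The replicate 1 count was 4, with *DREB1E* and *DREB2A* added, among the 7 members at or above the median signal, 3 with a floor of 32, where *DREB1E* was added, and ran from 1 to 3 when 1 array was left out. The filter on dim probe sets used the mean over all 6 arrays, so high replicate 1 signals could carry a gene past it. *DREB1E* gave 188.8 and 170 in replicate 1 and 2 to 38.2 elsewhere, so its call there is not separate support. The members' median was 1.51 after quantile normalisation, 1.03 with a floor of 32 and 1.26 with the filter on dim probe sets, and ran from 1.62 to 2.16 with arrays left out. Over all probe sets the shift of replicate 1 was 0.39 as deposited, -0.01 after quantile normalisation and 0 with a floor of 32, and *DREB1G* was higher by 5.13 and 4.74 in these last settings. *FZP* was -0.28 after quantile normalisation and had no value with a floor of 32, where all its signals lie at the floor. The replicate difference of *ERF4* ran from -0.13 to 0.08. The cause of these changes was not tested. Where signals were low, as for *FZP* and *DREB2D*, differences depend on values near the floor.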
